A study of Mus musculus with 5 samples.

Results

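The lung of mice without PDE4D, named 4D(-/-), was compared with the lung of the parental strain C57. PDE4D is a phosphodiesterase that breaks down cyclic AMP, the second messenger made by adenylyl cyclases when Gs-coupled receptors are engaged. Cyclic AMP acts through protein kinase A, EPAC proteins and the transcription factor CREB. In lung it relaxes airway smooth muscle and restrains inflammatory cells, and PDE4 inhibitors are used in chronic obstructive lung disease.

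The comparison uses 2 of 5 arrays, 1 of each strain, and was defined by the sample titles. C57 stands for female C57BL/6J mice. The 4D(-/-) mice were females of a line made on a C57BL/6 × 129/Ola background, then crossed back to C57 for 11 generations or more. All mice were naive, and none had been given elastase, the emphysema-inducing enzyme of the series title. Of 5 lungs frozen per strain, RNA of 3 was mixed into 1 pool, and no age is stated. The other arrays were 4D(+/+), the wild-type line of the same name as the knockout, and 4B(+/+) and 4B(-/-), the corresponding lines for PDE4B. They are of the same sex, tissue and treatment, and are given as levels beside the comparison. With 1 pool a side there is no replicate error, so no difference below carries a test. C57 and 4D(-/-) were separate breeding stocks, so the loss of PDE4D cannot be told apart from other differences between the stocks or pools.

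Each value is an RMA intensity of an Affymetrix probe set on a linear scale, and a fold is a ratio of intensities. Of 18194 genes, 11198 reached an intensity of 64 (log2 of 6) in at least 1 of the 2 arrays and were counted. The median intensity over all probe sets was 45.4 in C57 and 46.4 in 4D(-/-). The ratio of 3' to 5' signal, a sign of RNA quality, was 1.88 and 1.86 for the actin control and 1.72 and 1.77 for Gapdh, so the 2 pools were alike in it. In 4D(+/+), the further reference used below, it was 1.83 for actin but 1.31 for Gapdh, and the part of RNA quality in differences from that array was not tested. Both pools carried the markers of lung, with surfactant protein C (Sftpc) at 24527 in 4D(-/-) and 24791 in C57, the club cell protein Scgb1a1 at 25287 and 24948, and the alveolar type 1 receptor Ager at 19620.2 and 20143.

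In 4D(-/-), 37 genes were higher than in C57 by at least 2-fold, 0.330% of those counted, and 21 were lower, 0.188%, so that 0.518% lay past 2-fold either way. At 1.5-fold, the limit used for members of gene lists, 150 genes were higher (1.34%) and 88 lower (0.786%), 2.13% in all. The log2 difference had a median of -0.03 over all counted genes, an SD of 0.22, and its 5th and 95th percentiles were -0.33 and 0.28. The largest rise was in the cytochrome Cyp1a1 and the largest fall in the clock output gene Dbp. The lists with most members past 1.5-fold were skeletal muscle (17), cartilage and tendon (11), clock repressors and output (8), immediate early genes (8) and cell division (7). They had 19, 14, 14, 24 and 16 counted members, some of which reached 64 in 1 array alone. Among those at 64 or more in both arrays, 15 of 16 were past it for skeletal muscle. For cartilage and tendon it was 4 of 6, and for clock repressors and output 7 of 13. At the edge of the 2-fold limit stood the muscle light chain Mylpf, the clock activator Arntl and the deadenylase Noct just inside, at 2.01-fold, 2.01-fold and 2.02-fold. Skeletal actin (Acta1), the interferon-induced Ifit3 and the immunoglobulin segment Igkv9-120 stood just outside, each at 1.99-fold. In 12 of the 37 higher genes C57 lay below 64, and in 5 of the 21 lower genes 4D(-/-) did, so those folds rest on 1 value near background.

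**Figure D1:**
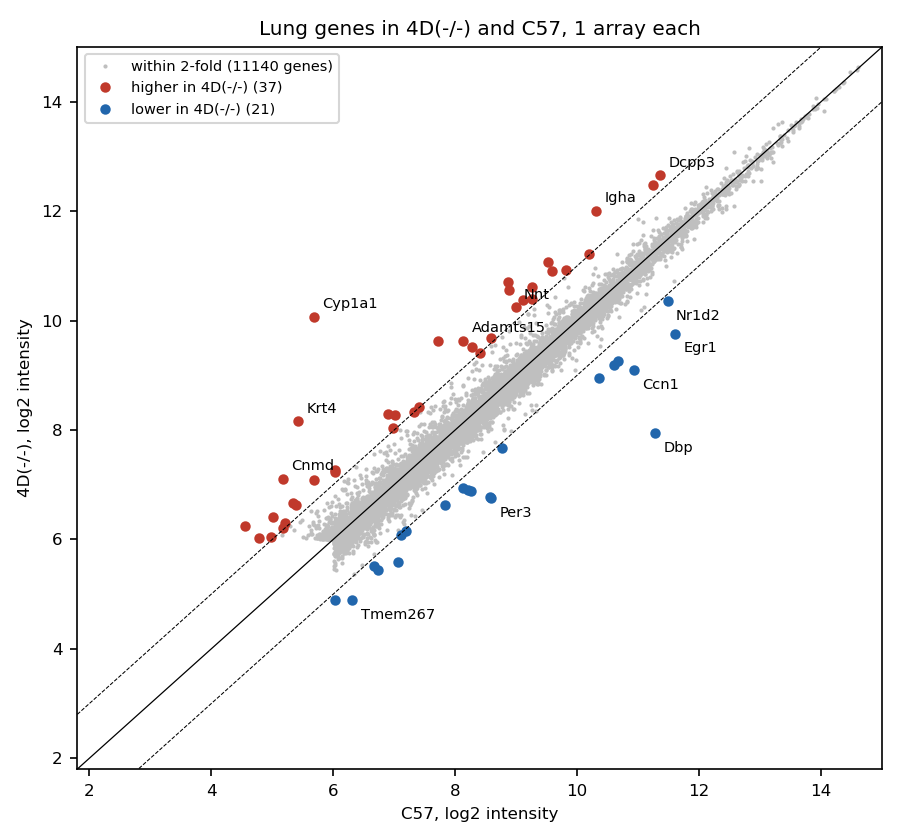
Log2 intensity of 11198 genes in C57 (horizontal) and 4D(-/-) (vertical), 1 array of mixed RNA each. The solid line marks equal values and the dashed lines 2-fold; 37 genes lie above the upper line, with Cyp1a1 farthest from it, and 21 below the lower one, with Dbp farthest.

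The targeted gene was still detected. The only Pde4d probe set over an intensity of 64 read 456 in C57, 523 in 4D(+/+), 386 in 4D(-/-), 484 in 4B(+/+) and 467 in 4B(-/-). It was lowest in 4D(-/-), 1.18-fold under C57, and the 4 other arrays lay between 456 and 523. A second Pde4d probe set read 13.1 in 4D(-/-) and between 5.46 and 6.45 elsewhere, all below 64. Which part of the gene was deleted is not stated, and a probe set outside that part checks nothing, so these values do not check the label. Of 12 genes with a Pde symbol over the floor, Pde6d and Pde12 among them, 0 were past 1.5-fold, against 2.13% of all counted genes. Pde3b, inhibited by cyclic GMP, read 551 against 398 in C57 and Pde9a, specific for cyclic GMP, 161 against 222 in C57. Pde4b, the PDE4 gene deleted in the other knockout line, read 466 against 438 in C57. Of 32 genes of cyclic AMP production and sensing 1 was past 1.5-fold, the CREB-family modulator Crem, higher by 1.67-fold. Crem read 138 in C57, 225 in 4D(+/+), 230.4 in 4D(-/-), 239 in 4B(+/+) and 261 in 4B(-/-), so C57 was low and the 4 lines lay close together. The median log2 difference of these 32 genes was 0.

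The position of the other arrays divided the genes past 2-fold. C57 was the lowest of the 5 arrays in 22 of the 37 higher genes and the highest in 19 of the 21 lower genes. Over all counted genes C57 was lowest in 18.2% and highest in 26.7%. 4D(-/-) was the highest array in 14 of the higher genes and the lowest in 9 of the lower ones, against 18.4% and 29.9% of all genes. Since the genes were chosen for a gap between these 2 arrays, these counts describe them and test nothing. The wild-type line 4D(+/+) lay nearer to 4D(-/-) than to C57, on the log2 scale, in 24 of the 37 higher (64.9%) and 18 of the 21 lower genes (85.7%), against 45.5% of all counted genes. In 9 genes 4D(+/+) lay within 1.2-fold of C57: Cyp1a1, Adamts15, Nnt, Chil4, Adamts9, Col2a1, Nr4a3 and Tmem252 were higher in 4D(-/-) and Tmem267 lower. These are 21.6% of the higher and 4.76% of the lower genes, where 75.7% of all counted genes had 4D(+/+) that near to C57.

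**Figure D2:**
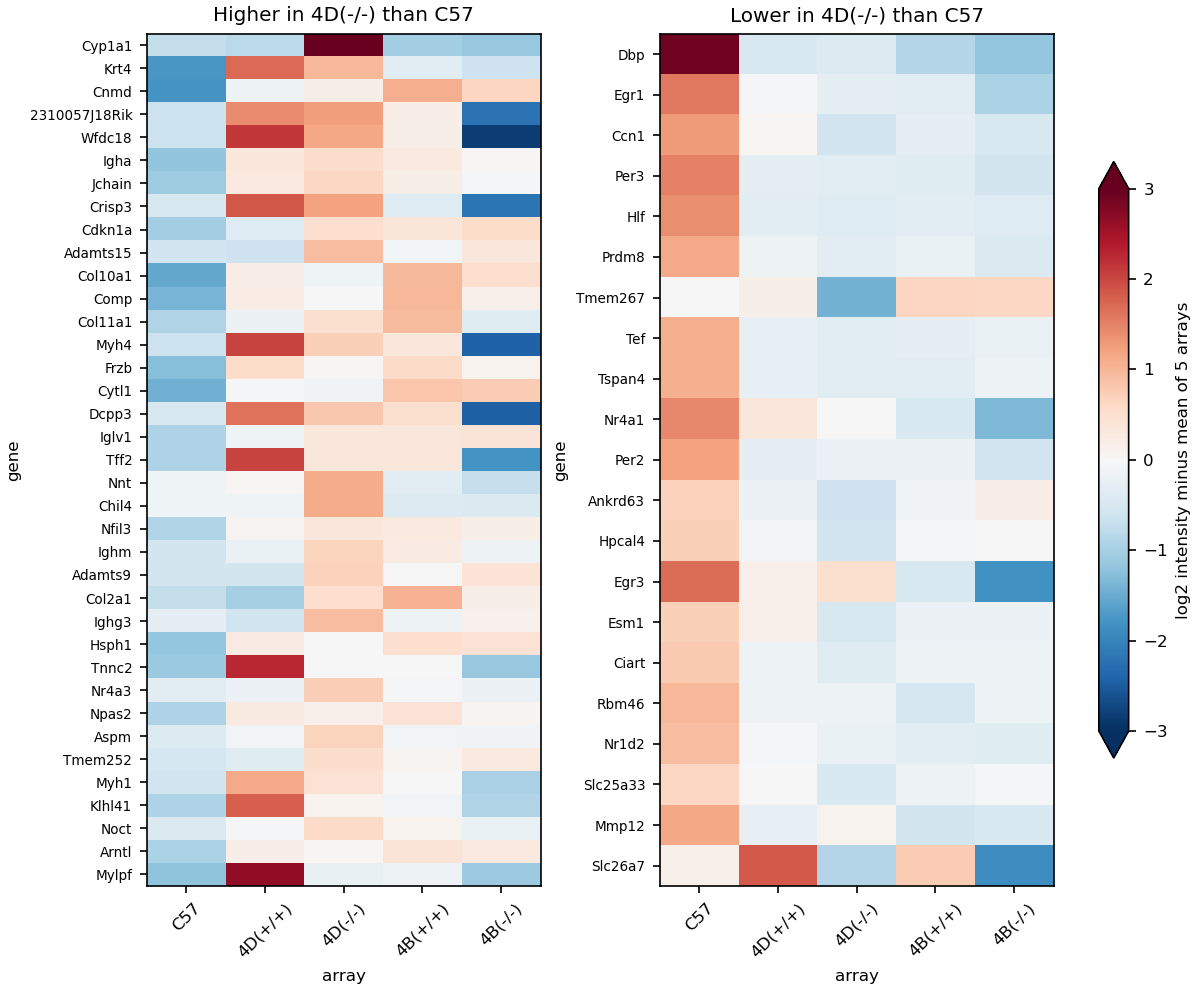
Log2 intensity of the 37 higher (left) and 21 lower genes (right), minus the mean of the 5 arrays, in colour, for each gene (rows) and array (columns); colours are capped at 3 either way. Red is above and blue below the gene's mean. C57 is the lowest array for 22 higher genes and the highest for 19 lower ones, while Cyp1a1 and Nnt are highest and Tmem267 lowest in 4D(-/-).

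Cyp1a1, an enzyme that oxidises polycyclic aromatic compounds and is induced through the aryl hydrocarbon receptor, read 51.4 in C57, 48.3 in 4D(+/+), 1074 in 4D(-/-), 41.4 in 4B(+/+) and 38.5 in 4B(-/-). It was high in 4D(-/-) alone, 20.9-fold above C57 and 22.2-fold above 4D(+/+), and below 64 in the other 4 arrays. Of 8 genes of the receptor's battery over the floor it was the 1 past 1.5-fold. The related enzyme Cyp1b1 read 149.5 against 114 in C57, the receptor target Tiparp 927 against 837 in C57 and Nqo1 82.4 against 72.7 in C57. The receptor gene Ahr read 1302 against 1806 in C57, and lay between 1145 and 1302 in the 4 lines. Its repressor Ahrr was below the floor at 7.21 against 7.61 in C57. Cyp2e1, an ethanol-oxidising cytochrome of another family, was the 1 of 12 past 1.5-fold among families 2 to 4, lower at 328 against 613 in C57. Because Cyp1a1 moved most, the 250 bases before its RefSeq start (GRCm38.p6) are shown, with the core letters of the dioxin response element in capitals (GCGTG, searched on both strands).
Cyp1a1, chr9:57697363-57697612, plus strand: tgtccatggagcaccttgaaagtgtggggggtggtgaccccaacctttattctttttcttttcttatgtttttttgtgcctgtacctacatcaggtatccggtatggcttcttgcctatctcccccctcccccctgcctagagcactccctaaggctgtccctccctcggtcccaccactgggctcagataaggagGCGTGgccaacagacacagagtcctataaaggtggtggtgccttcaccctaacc
The core occurred once, 54 bases before the start, and 35.2% of 27025 genes with a promoter window (250 bases before to 50 after the start) held it.

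A pair of matrix proteases stood out in 4D(-/-). Adamts15, which cleaves proteoglycans such as versican and aggrecan, read 279.9 in C57, 274 in 4D(+/+), 793 in 4D(-/-), 397 in 4B(+/+) and 534 in 4B(-/-). 4D(-/-) was highest, 2.83-fold above C57. C57 and 4D(+/+) were lowest, and both 4B arrays lay in between. Adamts9, a related proteoglycanase, read 311 in C57, 310.4 in 4D(+/+), 729.8 in 4D(-/-), 453 in 4B(+/+) and 602 in 4B(-/-), and another of its probe sets gave 275 for 4D(-/-) against 108 for C57. Of 17 metalloproteinases and other elastases, a list that holds Adamts15 but not Adamts9, 2 were past 1.5-fold upward and 1 downward. The gelatinase Mmp2 was higher, at 1218 against 739 in C57, and the macrophage elastase Mmp12 lower. Mmp12 read 138 in C57, 52.3 in 4D(+/+), 67.3 in 4D(-/-), 42.8 in 4B(+/+) and 45.4 in 4B(-/-). C57 was the highest array for Mmp12, and the 4 lines lay between 42.8 and 67.3. Past 1.5-fold were 0 of 10 antiproteases (median log2 difference 0.05), against 2.13% of all counted genes.

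Most elastic fibre genes and collagens stayed within 1.5-fold. Higher by it were 1 and 2 genes, where 1.34% of all counted genes were. The lists were chosen with earlier results of these data known, so these counts are a description and no test. Of 16 elastic fibre genes 1 was higher by 1.5-fold, elastin (Eln), the core of the fibre, and 0 were lower. Eln read 403 in C57, 393 in 4D(+/+), 754 in 4D(-/-), 439 in 4B(+/+) and 616 in 4B(-/-). Both knockouts lay above the 3 wild-type arrays, and 4D(-/-) was 1.87-fold above C57. Of 22 collagens 2 were higher and 0 lower, around a median of 0.34 where all genes had -0.03. Col2a1, Col10a1 and Col11a1, all higher by more than 2-fold, are held by the cartilage list and not by this one. Col1a1 of fibrillar collagen read 586 in C57, 547 in 4D(+/+), 1111 in 4D(-/-), 492 in 4B(+/+) and 552 in 4B(-/-), highest in 4D(-/-) with the other 4 arrays close together. Col8a1, a short-chain collagen of vessels, read 384 against 245 in C57. Of 19 genes of TGF-beta signalling, fibronectin and repair 0 were higher and 1 lower, Ccn1 (median 0.07).

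Of 22 measured cell division genes 16 were over the floor, 2 of them through 4D(-/-) alone. Of the 14 over it in both arrays 7 were higher by 1.5-fold, none lower, where 1.34% of all counted genes were higher. Over all 22 the median log2 difference was 0.49. The cyclin Ccna2 read 75.9 in C57, 90.3 in 4D(+/+), 137 in 4D(-/-), 79.1 in 4B(+/+) and 106 in 4B(-/-). The kinase Cdk1 read 130.2 against 75.4 in C57, the spindle protein Nusap1 121 against 70.6 in C57, and the midzone protein Prc1 110.5 against 65 in C57. The proliferation marker Mki67 read 192 in C57, 185 in 4D(+/+), 318 in 4D(-/-), 158 in 4B(+/+) and 185 in 4B(-/-). It was highest in 4D(-/-), as were 18.4% of all counted genes. Aspm, another spindle protein and outside the list, was past 2-fold at 66.2 against 31.7 in C57, but C57 lay below 64. The cell cycle inhibitor Cdkn1a, listed with glucocorticoid-responsive genes, moved the same way. It read 731 in C57, 1145 in 4D(+/+), 2143 in 4D(-/-), 1918 in 4B(+/+) and 2203 in 4B(-/-), and C57 and 4D(+/+) were the low arrays.

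The circadian clock is a loop in which Arntl with Clock or Npas2 activates E-box genes. Among them are the repressors of the loop, Per and Cry, and the output factors Dbp, Tef and Hlf. Output factors act on D-boxes, and Nr1d1 and Nr1d2 repress Arntl, Npas2 and Nfil3 through ROR elements. Of 14 repressor and output genes 8 lay below C57 by 1.5-fold in 4D(-/-) and 0 above it (median -0.88, but 0.09 when 4D(+/+) is the reference). Ciart, 1 of the 8, passed the floor through C57 alone. Of the 13 genes over it in both arrays 7 were lower (median -0.63), and the median over all 15 measured was -0.63 too. Of 8 activators and genes of their loop 3 were higher, none lower (median 0.37, and 0.02 against 4D(+/+)). Of the 3, Npas2 passed the floor through 4D(-/-) alone. By comparison, 1.34% of all counted genes were higher by 1.5-fold and 0.786% lower. The listed promoter stretches of clock genes hold the letters of these elements in capitals, CACGTG for the E-box, TTANGTAA for the D-box and TAGGTCA for the ROR element (RefSeq, GRCm38.p6). Both strands were searched, and the match in Nfil3 is on the opposite strand, so it is printed as its reverse complement.
Tef, chr15:81802516-81802581, plus strand: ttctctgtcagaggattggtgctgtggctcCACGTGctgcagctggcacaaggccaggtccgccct
Ciart, chr3:95882309-95882374, minus strand: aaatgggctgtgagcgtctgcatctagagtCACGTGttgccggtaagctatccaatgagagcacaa
Per3, chr4:151044833-151044900, minus strand: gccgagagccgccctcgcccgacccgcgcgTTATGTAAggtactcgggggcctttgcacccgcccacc
Arntl, chr7:113207530-113207558, plus strand: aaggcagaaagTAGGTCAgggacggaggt
Nfil3, chr13:52981040-52981081, minus strand: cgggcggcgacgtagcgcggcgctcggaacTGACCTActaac
Of 11 repressor and output genes with a promoter window 3 held the E-box letters (Ciart, Per1 and Tef), against 8.09% of all genes, and 1 the D-box letters (Per3), against 2.72%. The E-box share of 27.3% was not particular to the clock. It was 26.3% for immediate early genes and 28.0% for genes of cyclic AMP production and sensing, but 0 of 5 for the aryl hydrocarbon receptor battery. Of 7 genes of the activator loop 2 held the ROR letters, Arntl and Nfil3, against 2.97%. These matches describe letters in the window.

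Dbp, which is transcribed with a strong daily rhythm, read 2475 in C57, 233 in 4D(+/+), 247 in 4D(-/-), 176 in 4B(+/+) and 146 in 4B(-/-). C57 stood alone at the top, and 4D(-/-) lay 10-fold under it but 1.06-fold from 4D(+/+). Per3 read 385 in C57, 111 in 4D(+/+), 108 in 4D(-/-), 106 in 4B(+/+) and 92.1 in 4B(-/-). Per2, another period repressor, read 307 in C57, 110.1 in 4D(+/+), 117 in 4D(-/-), 118 in 4B(+/+) and 88.1 in 4B(-/-). The output factor Hlf read 381 in C57, 116 in 4D(+/+), 109.7 in 4D(-/-), 116 in 4B(+/+) and 109.7 in 4B(-/-). Tef, of the same family, read 1630.2 in C57, 651 in 4D(+/+), 611 in 4D(-/-), 637 in 4B(+/+) and 673 in 4B(-/-). Ciart, an E-box repressor, was lower by 2.23-fold, Nr1d2 by 2.18-fold and Nr1d1 by 1.55-fold. In each of these 8 genes C57 was the highest array, and the 4 lines lay below it. Per1 missed the 1.5-fold limit, at 565 against 772 in C57, and Cry1, a repressor listed here with the activator loop, read 225 against 274 in C57. On the activator side Arntl read 159.6 in C57, 356 in 4D(+/+), 320.3 in 4D(-/-), 402 in 4B(+/+) and 379 in 4B(-/-). Npas2, a relative of Clock, read 37 in C57, 84.2 in 4D(+/+), 78.3 in 4D(-/-), 94.3 in 4B(+/+) and 74 in 4B(-/-). Nfil3, a repressor acting on D-boxes, read 64.9 in C57, 128 in 4D(+/+), 154 in 4D(-/-), 148 in 4B(+/+) and 138 in 4B(-/-). C57 was the lowest array in each, as it was in 18.2% of all counted genes. Noct, a deadenylase with rhythmic expression that is outside the lists, read 169 in C57, 224 in 4D(+/+), 342 in 4D(-/-), 248 in 4B(+/+) and 199 in 4B(-/-) and was highest in 4D(-/-). The hour at which lungs were taken is not stated, so strain and hour cannot be told apart.

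**Figure D3:**
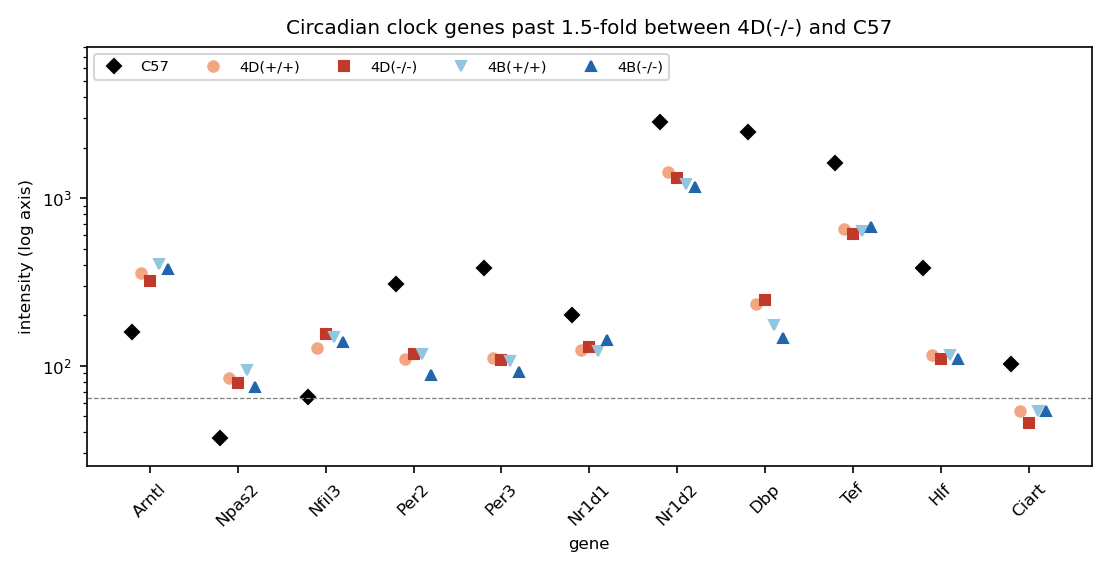
Intensity on a log axis of 11 clock genes past 1.5-fold between 4D(-/-) and C57, in each of the 5 arrays; the dashed line is the floor of 64. C57 lies below the 4 lines for Arntl, Npas2 and Nfil3 and above them for the other 8 genes.

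Immediate early genes respond within minutes to stimuli, and many carry CREB sites. Of 24 such genes 7 fell short of C57 by 1.5-fold in 4D(-/-) and 1 exceeded it (median -0.33, and 0.1 with 4D(+/+) as the reference). Over all counted genes 0.786% were lower by it, 1.34% higher, and the median was -0.03. Egr1, a zinc finger factor, read 3115 in C57, 1006 in 4D(+/+), 866 in 4D(-/-), 815 in 4B(+/+) and 541 in 4B(-/-), with C57 highest. Ccn1, a secreted matrix protein, read 1947 in C57, 837 in 4D(+/+), 544 in 4D(-/-), 658 in 4B(+/+) and 589 in 4B(-/-), and a second probe set read 372 in 4D(-/-) and 1227 in C57. A further pair of Ccn1 probe sets over the floor read 136 against 131 and 111 against 95, so the fall was not seen by all its probe sets. The orphan receptor Nr4a1 read 1548 in C57, 726 in 4D(+/+), 581 in 4D(-/-), 414 in 4B(+/+) and 226 in 4B(-/-). Egr3, a relative of Egr1, read 227 in C57, 78.4 in 4D(+/+), 99 in 4D(-/-), 50.7 in 4B(+/+) and 20.2 in 4B(-/-). C57 was highest and 4B(-/-) lowest in both. Fos was lower by 1.81-fold, Ier3 by 1.81-fold and Atf3 by 1.61-fold. Nr4a3, a relative of Nr4a1, went the other way at 383 in C57, 434 in 4D(+/+), 815 in 4D(-/-), 473 in 4B(+/+) and 431 in 4B(-/-), highest in 4D(-/-), while a dimmer Nr4a3 probe set read 63.8 in 4D(-/-) and 75.2 in C57. Of 19 members with a promoter window 13 (68.4%) held TGACG, the half-site of the cyclic AMP response element on either strand, against 23.0% of all genes. The share was 45.5% for clock repressors and output and 42.9% for the activator loop. It was 40.0% for cyclic AMP production and sensing and 20.0% for the aryl hydrocarbon receptor battery. Windows of these genes can differ from others in base composition.

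Of 19 heat shock chaperones 5 were higher by 1.5-fold, none lower (median 0.3, and -0.14 against 4D(+/+)). The counted genes as a whole had 1.34% higher by it, 0.786% lower and a median of -0.03. Hsph1, a co-chaperone of Hsp70, read 610.4 in C57, 1617 in 4D(+/+), 1348 in 4D(-/-), 1950.2 in 4B(+/+) and 1853 in 4B(-/-). Hspa1b, an inducible Hsp70, read 2036 in C57, 3853 in 4D(+/+), 3686 in 4D(-/-), 4493 in 4B(+/+) and 2339 in 4B(-/-). Chordc1 was higher by 1.69-fold and Dnaja1 by 1.65-fold. C57 was the lowest array for each of the 5 chaperones. Of 16 glucocorticoid-responsive genes 5 were higher, none lower (median 0.28). Besides Cdkn1a, the receptor co-chaperone Fkbp5 read 245 in C57, 196 in 4D(+/+), 465 in 4D(-/-), 321 in 4B(+/+) and 521 in 4B(-/-), high in both knockouts and lowest in 4D(+/+). Of 2 Fkbp5 probe sets over the floor, only 1 was past 1.5-fold, and neither was lower than in C57. The metabolic kinase Pdk4 was higher by 1.78-fold and the lipase inhibitor Angptl4 by 1.54-fold. Other steroid targets stayed within 1.5-fold, Tsc22d3 at 4245 against 3476 in C57, Zbtb16 at 619 against 469.6 in C57 and Klf9 at 8679 against 8558 in C57.

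Of 10 plasma cell genes 5, all immunoglobulin or joining chains, were higher and 5 stayed within 1.5-fold. Their median was 0.71, but 0.21 with the median of each gene's probe sets and 0.4 against 4D(+/+). Among all counted genes 1.34% were higher by 1.5-fold, and the median was -0.03. The heavy chain Igha read 1269.8 in C57, 3556 in 4D(+/+), 4114 in 4D(-/-), 3520.2 in 4B(+/+) and 2959 in 4B(-/-), and its 3 probe sets lay between 3.05-fold and 3.24-fold above C57. The joining chain Jchain read 470.1 in C57, 1199 in 4D(+/+), 1514 in 4D(-/-), 1115 in 4B(+/+) and 950.1 in 4B(-/-). For both, C57 was low, 4D(-/-) highest and the other 3 arrays nearer to 4D(-/-). The light chain Iglv1 was higher by 2.39-fold, with C57 lowest, on its brightest probe set. Another Iglv1 probe set over the floor was higher by 1.44-fold, with 4B(-/-) at 103 below C57 at 132. Ighg3 read 65 in C57, 52.8 in 4D(+/+), 151 in 4D(-/-), 72.3 in 4B(+/+) and 87 in 4B(-/-), highest in 4D(-/-) and lowest in 4D(+/+). Ighm read 2414 in C57, 3082 in 4D(+/+), 5673 in 4D(-/-), 4187 in 4B(+/+) and 3168 in 4B(-/-) on its brightest probe set, but its 5 probe sets over the floor disagreed, with 3 higher past 1.5-fold and 2 lower, so its direction is uncertain. Immunoglobulin probe sets share sequence between segments. The plasma cell factor Xbp1 stayed at 5129.6 against 4491 in C57 and the chaperone Mzb1 at 252 against 218 in C57. Of 7 B-cell genes 0 were past 1.5-fold, with a median of -0.23. In whole lung, more cells of a type cannot be told apart from more RNA per cell.

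Other immune lists held few members past 1.5-fold, a limit that 2.13% of all counted genes passed, 1.34% upward and 0.786% downward. The scavenger receptor Marco was the 1 of 12 alveolar macrophage genes past the limit. Marco read 146 in C57, 95.5 in 4D(+/+), 254 in 4D(-/-), 145 in 4B(+/+) and 146 in 4B(-/-), highest in 4D(-/-). The macrophage list had a median of 0.21. Chil4, a chitinase-like protein of macrophages and epithelium, read 27.5 in C57, 27.5 in 4D(+/+), 65.2 in 4D(-/-), 22.7 in 4B(+/+) and 22.1 in 4B(-/-) and was above 64 in 4D(-/-) alone. Of 20 cytokine and chemokine genes 2 were higher, the epithelial alarmin Il33 at 1979.9 against 1260.3 in C57 and the B-cell chemokine Cxcl13 at 365 against 224 in C57. Of 26 interferon-stimulated genes 1 was lower, Ifit3 at 323 against 644 in C57. Glycam1, a mucin of high endothelial venules and the 1 gene of its list of 5 over the floor, read 588 in C57, 85.2 in 4D(+/+), 1116 in 4D(-/-), 87.2 in 4B(+/+) and 16.4 in 4B(-/-). It was high in C57 and 4D(-/-) and low in the other 3 arrays. Of the 3 erythroid genes 1 was higher, Alas2 of haem synthesis at 240.4 against 147 in C57. All members over the floor lay within 1.5-fold for T cells (8 genes), NK cells (7), neutrophils (5), dendritic cells (7), monocytes and interstitial macrophages (11), platelets (6) and MHC class II (9). So did 97.9% of all counted genes.

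Markers of the main lung cell types differed little, as did most counted genes, 97.9% of which lay within 1.5-fold. Every member stayed within 1.5-fold for alveolar type 1 (9 genes, median -0.04), ciliated (9, -0.14), endothelial (15, -0.08), lymphatic (4, -0.06), fibroblast (11, 0.10), smooth muscle (9, -0.06) and mesothelial lists (6, 0). Of 10 alveolar type 2 genes Il33 alone was past it. Of 12 club and airway secretory genes 3 were higher, the mucin Muc5b at 946 against 560.5 in C57, Bpifb1 at 3764 against 2506 in C57 and Chad, which the cartilage list also holds. Fatty acid synthesis (19 genes) and oxidative phosphorylation (20) had 0 members past 1.5-fold. Of 26 antioxidant genes 1 was, Nnt.

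**Figure D4:**
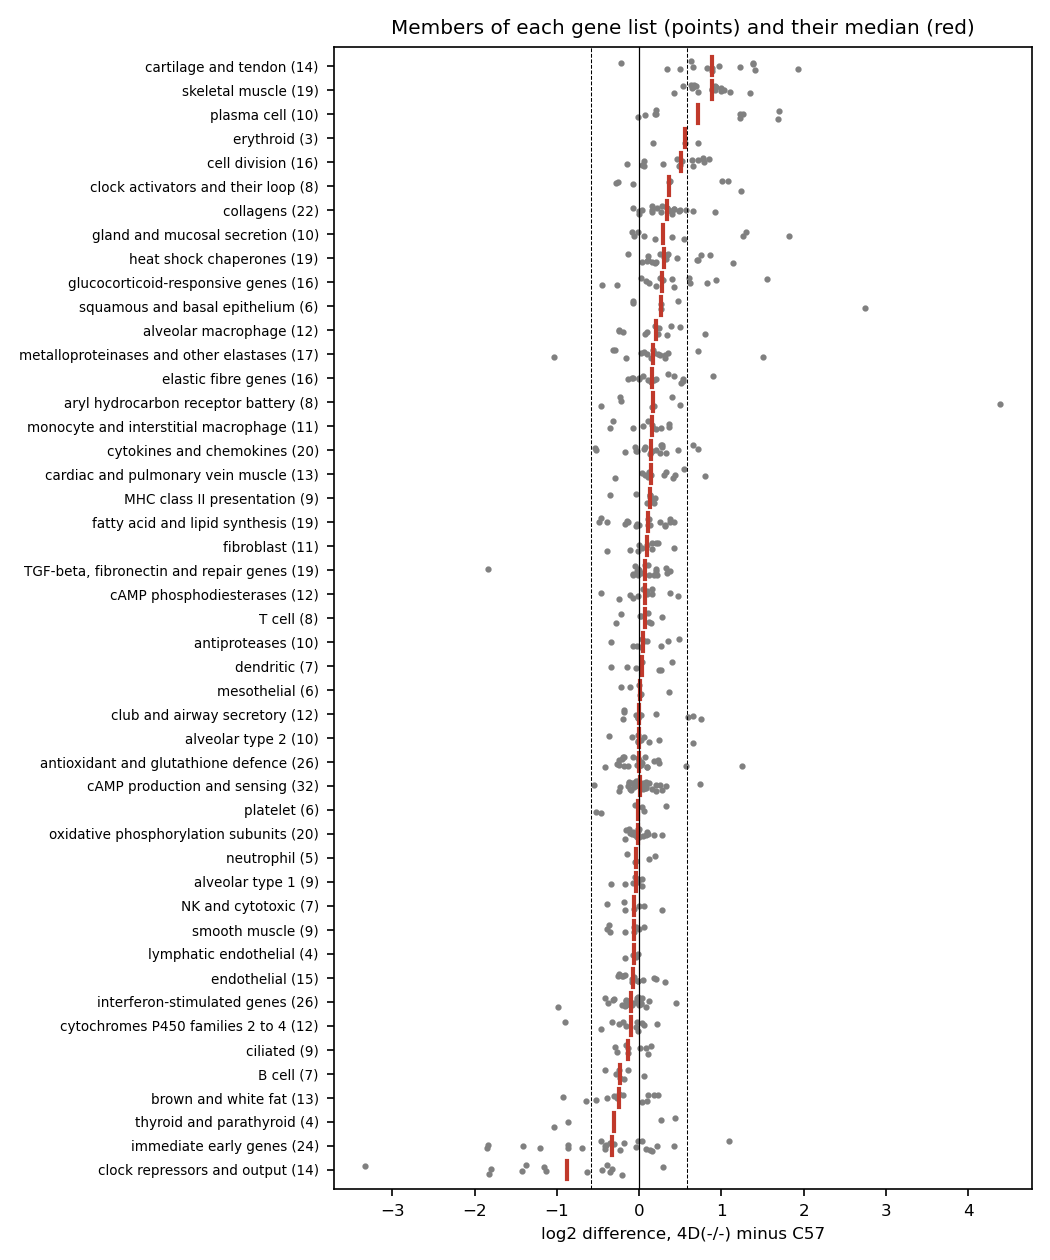
Log2 difference of 4D(-/-) minus C57 (horizontal) for the members of each gene list with 3 or more genes over the floor (rows, with their number); grey points are genes, red bars list medians, and dashed lines 1.5-fold. Cartilage and skeletal muscle have the highest medians, 0.89 each, with 7 and 3 of their genes over the floor through 4D(-/-) alone. Clock repressors and output have the lowest, -0.88, with 1 gene over the floor through C57 alone.

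Genes of skeletal muscle, cartilage and glands, tissues other than lung parenchyma, were among those higher in 4D(-/-). Of 21 measured skeletal muscle genes 19 were over the floor, 3 of them through 4D(-/-) alone. Of the 16 over it in both arrays 15 were higher by 1.5-fold, none lower, where 1.34% of all counted genes were higher. Over all 21 the median log2 difference was 0.71, and over the 19 it turned from 0.89 to -2.12 when 4D(+/+) was the reference. The fast myosin Myh4 read 612 in C57, 3920.3 in 4D(+/+), 1562 in 4D(-/-), 1204 in 4B(+/+) and 177 in 4B(-/-). The troponin Tnnc2 read 902 in C57, 9432 in 4D(+/+), 1949 in 4D(-/-), 1953 in 4B(+/+) and 889 in 4B(-/-). 4D(+/+) was far above the rest in both, so 4D(-/-) lay 2.16-fold above C57 for Tnnc2 but 4.84-fold below 4D(+/+). Klhl41, a sarcomere-associated protein outside the list, and Myh1 and Mylpf were also past 2-fold. The summed intensity of the 19 genes was 9183 in C57, 64482 in 4D(+/+), 16744 in 4D(-/-), 17206 in 4B(+/+) and 10806 in 4B(-/-). Of 13 cardiac muscle genes 1 was higher, the natriuretic peptide Nppa at 1378 against 793 in C57.

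Of 21 measured cartilage and tendon genes 14 were over the floor, 7 of them through 4D(-/-) alone, so that their being counted depended on their level there. Of the 6 over it in both arrays 4 were higher by 1.5-fold (Acan, Comp, Chad and Fmod), none lower. The share of all counted genes higher by it was 1.34%. Over all 21 the median log2 difference was 0.66, with 20 above 0. Over the 14 it turned from 0.89 to -0.19 when 4D(+/+) was the reference. Chondromodulin (Cnmd) read 36.1 in C57, 111 in 4D(+/+), 138 in 4D(-/-), 261 in 4B(+/+) and 192 in 4B(-/-). Comp, a matrix protein of cartilage and tendon, read 119 in C57, 366 in 4D(+/+), 314 in 4D(-/-), 624 in 4B(+/+) and 344 in 4B(-/-). The hypertrophic collagen Col10a1 read 51.4 in C57, 172 in 4D(+/+), 136 in 4D(-/-), 291 in 4B(+/+) and 209.7 in 4B(-/-). C57 was lowest and 4B(+/+) highest in all 3. Col11a1 was higher by 2.62-fold and type II collagen Col2a1 by 2.34-fold, in both cases from a C57 value below 64. Cytl1, a cartilage cytokine, and Frzb, a Wnt antagonist of cartilage, both outside the list, were higher by 2.5-fold and 2.51-fold. The summed intensity of the 14 genes was 1644 in C57, 2951 in 4D(-/-) and between 3028 and 4481 in the other arrays.

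Gland and squamous epithelium genes also differed between the pools. Krt4, a keratin of stratified mucosa such as oesophagus, read 42.9 in C57, 466 in 4D(+/+), 287 in 4D(-/-), 117 in 4B(+/+) and 94.5 in 4B(-/-), and was the 1 of 6 squamous genes past 1.5-fold. Of these 6, 2 passed the floor through 4D(-/-) alone, Krt4 among them. Of the 4 over it in both arrays 0 were past 1.5-fold. Of 10 gland and mucosal genes 3 were higher, none lower (median 0.3, and -0.88 against 4D(+/+)). Higher by 1.5-fold were 1.34% of all counted genes, and lower 0.786%. Wfdc18 read 469 in C57, 3209 in 4D(+/+), 1659 in 4D(-/-), 837 in 4B(+/+) and 104 in 4B(-/-). Dcpp3 read 2623 in C57, 11362 in 4D(+/+), 6444 in 4D(-/-), 5081 in 4B(+/+) and 672 in 4B(-/-). The trefoil peptide Tff2 read 554 in C57, 4253 in 4D(+/+), 1324 in 4D(-/-), 1335 in 4B(+/+) and 305 in 4B(-/-). All 3 were lower in C57 than in 4D(-/-) and lower in 4D(-/-) than in 4D(+/+). Outside the lists, 2310057J18Rik read 209 in C57, 879.5 in 4D(+/+), 786 in 4D(-/-), 378 in 4B(+/+) and 71.1 in 4B(-/-). The secretory protein Crisp3 read 23.4 in C57, 119.6 in 4D(+/+), 75.4 in 4D(-/-), 25 in 4B(+/+) and 7.12 in 4B(-/-). All 5 were highest in 4D(+/+) and lowest in 4B(-/-). Of 4 thyroid and parathyroid genes over the floor 2 were lower, while parathyroid hormone (Pth) read 2155 against 1799 in C57 and the granin Chga 431 against 319 in C57. Thyroglobulin (Tg) read 3065 in C57, 7717 in 4D(+/+), 1687 in 4D(-/-), 4802 in 4B(+/+) and 448 in 4B(-/-). Slc26a7, an anion transporter of thyroid and stomach, read 147 in C57, 473 in 4D(+/+), 71.4 in 4D(-/-), 222 in 4B(+/+) and 36 in 4B(-/-). Both were lowest in 4B(-/-) and highest in 4D(+/+). The thermogenic brown fat gene Ucp1 read 176 in C57, 986 in 4D(+/+), 92.2 in 4D(-/-), 792 in 4B(+/+) and 251 in 4B(-/-), lowest in 4D(-/-). Pck1, of glyceride and glucose synthesis, was the other of 13 fat genes past 1.5-fold, lower by 1.57-fold. Of the 13, 8 lay below 0 and 5 above (median -0.25). The part that tissue from beside the lung has in these differences was not tested.

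Genes beside Pde4d were examined in RefSeq gene order on chromosome 13, since alleles of the donor strain can stay linked to a targeted gene through backcrossing. Of 79 genes over the floor, 50 before Pde4d and 29 after it, 2 were higher and 5 lower by 1.5-fold, which is 8.86% against 2.13% of all genes. In the same 79 genes 5 were past 1.5-fold between 4D(+/+) and C57, and 9 between 4D(-/-) and 4D(+/+). The share of all genes past 1.5-fold was not counted for either of these comparisons, so 5 and 9 have no background beside them. Nnt, the mitochondrial transhydrogenase that carries a known deletion in C57BL/6J, read 509 in C57, 569 in 4D(+/+), 1212 in 4D(-/-), 442 in 4B(+/+) and 345 in 4B(-/-). A second Nnt probe set read 592 in 4D(-/-) and between 221 and 330 in the other arrays, so both were highest in 4D(-/-). Tmem267, 3 places further along, read 79.4 in C57, 89.2 in 4D(+/+), 29.6 in 4D(-/-), 124 in 4B(+/+) and 122 in 4B(-/-). 4833420G17Rik, between them, read 483 in C57, 464 in 4D(+/+), 251 in 4D(-/-), 510.1 in 4B(+/+) and 487 in 4B(-/-). Both were lowest in 4D(-/-), as were 29.9% of all counted genes. Esm1, an endothelial proteoglycan, was lower by 2.28-fold and the kinase Plk2, next to Pde4d, by 1.64-fold, with C57 the highest array in both. Elovl7, a fatty acid elongase on the other side of Pde4d, was higher by 1.71-fold, with 2 of its 4 probe sets over the floor past 1.5-fold. Ankdd1b was lower by 1.57-fold. The part of linked alleles in these differences was not tested.

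**Figure D5:**
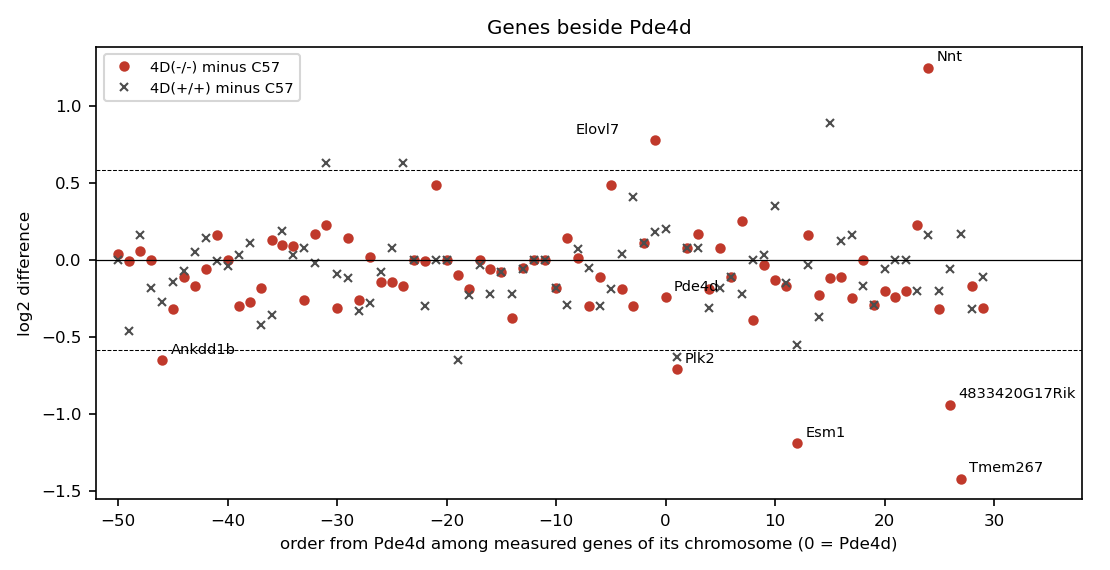
Log2 difference from C57 (vertical) of 4D(-/-) (red points) and 4D(+/+) (grey crosses) for Pde4d and the 79 genes over the floor nearest to it, by their order from Pde4d at 0 (horizontal); dashed lines mark 1.5-fold. Nnt, 4833420G17Rik and Tmem267 at the right end are far from 0 in 4D(-/-) only.

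The remaining genes past 2-fold belonged to no list. Tspan4, a tetraspanin, read 1316 in C57, 525 in 4D(+/+), 493 in 4D(-/-), 498 in 4B(+/+) and 558 in 4B(-/-). Prdm8, of a family of histone methyltransferases, read 133 in C57, 54.6 in 4D(+/+), 47.7 in 4D(-/-), 53.2 in 4B(+/+) and 44.8 in 4B(-/-). C57 was the highest array in both and the 4 lines lay together below it. Rbm46, an RNA-binding protein, followed the same pattern at 29.6 against 65.6 in C57. Ankrd63 was lower by 2.48-fold, the neuronal calcium sensor Hpcal4 by 2.43-fold and the mitochondrial pyrimidine carrier Slc25a33 by 2.13-fold, each with 4D(-/-) lowest and C57 highest. Tmem252 was higher by 2.08-fold and read 126 in C57, 140.5 in 4D(+/+), 262 in 4D(-/-), 192 in 4B(+/+) and 222 in 4B(-/-), lowest in C57 and 4D(+/+).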

How the data were processed

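RNA of 1 pool per strain was hybridised to 1 Affymetrix array each, 5 in all, with 0.3 µg of total RNA labelled per array. The authors deposited 1 intensity per probe set on a linear scale, and the submitters' processing notes name RMA; its version and a genome build are not stated. RMA equalises the distributions of arrays, so a change shared by most genes would not be seen. Of the differences, 4.33% over the counted genes were exactly 0.

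Of 45101 probe sets, 34958 have 1 gene symbol in the platform annotation and were used, 932 have several and 9211 none. Values were converted to log2, and each gene was represented by its brightest probe set over the 5 arrays (pandas 2.3.3, Python 3.11.15). A gene was counted from log2 6 in either array. Named were all genes past 2-fold, up to 30 each way with the rest given as values, up to 4 members per list past 1.5-fold, Pde4d, Pde4b and up to 8 neighbours; Aspm, Tmem252, Klhl41 and Noct (past 2-fold but beyond the first 30), Mki67, Fos, Ier3, Atf3, Nr1d1, Acan and Fmod (past 1.5-fold but beyond the first 4 of a list) and the members within 1.5-fold fall outside this rule and were chosen after their values were seen. The 51 lists held 789 symbols, 726 measured and 587 counted. The members and lists were chosen with earlier results of these data known. RefSeq (GRCm38.p6) gave gene order, which placed 11181 genes, and promoter windows; the ROR element was a later addition, made with the values known. The number of arrays limits the precision. Which list members passed the floor in both arrays was counted as an addition made after the data were seen. Counting was tested on simulated data. Alternatives were other fold limits, floors, probe-set summaries, scalings (cyclic loess of limma 3.58.1) and references.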

Additional observations from a re-analysis of the deposited data

Results flagged for a closer look

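The following genes were past 2-fold from C57 in 4D(-/-) and at least 1.5-fold from C57 the opposite way in 4B(-/-), with 1 array each, so the difference between the knockouts was not tested. The shared reference is the same C57 array. Among secretory genes, the log2 difference from C57 in 4B(-/-) was -1.56 for 2310057J18Rik, where 4D(-/-) had 1.91, -2.18 for Wfdc18 (1.82), -1.72 for Crisp3 (1.69), -1.96 for Dcpp3 (1.30) and -0.86 for the trefoil peptide Tff2 (1.26). For the fast myosin Myh4 it was -1.79 against 1.35. Tmem267, near Pde4d on chromosome 13, was 0.62 above C57 in 4B(-/-) and at -1.42 in 4D(-/-).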

How the results depend on the processing

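Cyclic loess and centring on the median left the medians of the 47 lists with 3 or more genes over the floor and the 58 genes past 2-fold within 0.2 on the log2 scale, about 1.15-fold, and kept the counts within 1.5 times, as did floors of log2 5 and 7 and asking both arrays to pass the floor. The shift of the median of all genes was at most 0.03 either way. Other fold limits moved the counts, to 150 higher and 88 lower at 1.5-fold and to 8 and 5 at 3-fold. The reference moved them too, to 24 higher and 172 lower against 4D(+/+) and to 10 higher against the 3 wild-type arrays averaged, where 24 were lower. With 4D(+/+) as reference 14 of 47 list medians changed sign. Of those at least 0.2 from 0 before, these did: immediate early genes (0.1), clock repressors and output (0.09), heat shock chaperones (-0.14), B cell (0.38), skeletal muscle (-2.12), cartilage and tendon (-0.19), squamous and basal epithelium (-0.29) and gland and mucosal secretion (-0.88). Of smaller ones, fatty acid and lipid synthesis (-0.16), alveolar type 1 (0.23), endothelial (0.13), lymphatic (0.19), NK (0.02) and cardiac muscle (-0.12) did. Sign changes were also seen in the log2 differences of 2310057J18Rik (-0.16), Arntl (-0.15), Col10a1 (-0.34), Comp (-0.22), Crisp3 (-0.67), Cytl1 (-0.08), Dbp (0.08), Dcpp3 (-0.82), Egr3 (0.34), Frzb (-0.52), Hsph1 (-0.26), Klhl41 (-1.71), Krt4 (-0.7), Mmp12 (0.36), Myh1 (-0.7), Myh4 (-1.33), Mylpf (-2.88), Npas2 (-0.11), Per2 (0.09), Tff2 (-1.68), Tnnc2 (-2.27) and Wfdc18 (-0.95). Against that average 10 list medians changed sign, 5 of them at least 0.2 from 0 before: immediate early genes (0.02), B cell (0.2), skeletal muscle (-0.49), squamous and basal epithelium (-0.04) and gland and mucosal secretion (-0.21). So did Col10a1 (-0.01), Egr3 (0.03), Klhl41 (-0.17), Mylpf (-0.64), Tff2 (-0.15) and Tnnc2 (-0.39). When probe sets of a gene were summarised by their median, 31 genes were higher and 14 lower, and Aspm (-0.02), Ighm (-0.46) and Nr4a3 (-0.24) changed sign. The list medians that moved were plasma cell (0.21), clock activators (0.16, and 0.15 against the averaged wild types), clock repressors and output (-0.66), erythroid (0.29) and skeletal muscle (0.67). Beside Pde4d, 2 of 50 genes were higher by 1.5-fold and 2 lower within 25 genes a side, 8.0% in all. Within 100 a side, of which only 29 lay after Pde4d, 4 of 129 genes were higher and 7 lower (8.53%). Of all counted genes 2.13% were past 1.5-fold. The cause of these changes was not tested. No paired analysis was possible because each strain has 1 array and the labels carry no replicate numbers, and for the same reason no array could be left out. Of the 58 genes past 2-fold, 16 had more than 1 probe set over the floor; in 12 all were past 1.5-fold the same way, and in 3, Ighm, Nr4a3 and Ccn1, some had the opposite sign.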

Other observations

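Probe sets with no gene symbol or with several were outside the comparison. Of 2081 of them that reached an intensity of 64 in C57 or 4D(-/-), 9 were higher in 4D(-/-) by at least 2-fold and 3 lower. Among the 11198 counted genes it was 37 (0.330%) and 21 (0.188%). The probe set shared by Scgb2b7 and Scgb2b20, secretoglobins, read 94.4 in 4D(-/-) against 14.7 in C57, and 239 in 4D(+/+). The one shared by H19, an imprinted non-coding RNA, and Mir675 read 164 against 75.9, and 579 in 4D(+/+). A probe set shared by Dnm3os and Mir214 read 91.9 against 37.9, and between 55.0 and 58.1 in the other arrays. One without a symbol read 140.2 in 4D(-/-) and 396 in C57 but between 2302 and 3199 in the other 3 arrays.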
